A study of Mus musculus with 6 samples.

Results

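Ion channels and transporters that move fluid across the uterine epithelium are described here as a set of 9 named genes, chosen by symbol: the sodium channel subunits Scnn1a, Scnn1b and Scnn1g, the kinase Sgk1, the pump subunit Fxyd4, the cotransporter Slc12a2, the potassium channel Kcnk5, the anion channel Cftr and the anion exchanger Slc26a4. They are measured by the 13 probe sets that the platform annotation gives to 1 of these symbols alone, out of 45037 probe sets and 18193 named genes. Slc12a2 has 3 probe sets drawn from 1 transcript record, Kcnk5 has 2 from 1 record, Cftr has 2 from different records, and the other genes have 1 each.

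Uterine fluid volume is set by epithelial ion transport. The epithelial sodium channel, built from alpha, beta and gamma subunits, lets sodium and then water leave the lumen, whereas the chloride channel Cftr lets chloride and fluid enter it. The kinase Sgk1, a corticosteroid- and progesterone-responsive gene, keeps the sodium channel at the cell surface. The sodium pump and its FXYD subunits, the cotransporter that loads chloride into the cell and background potassium channels supply the driving forces.

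RNA came from mouse uterus, taken on day -1 of artificially induced decidualisation, in which hormones and a uterine stimulus make the stroma differentiate much as in pregnancy. The 3 control samples (Ihhf/f) carried floxed alleles of Indian hedgehog (Ihh), an epithelial ligand received by the stroma. The 3 Ihh-ablated samples (PRcre/+Ihhf/f, called Ihhd/d) also carried a Cre recombinase at the progesterone receptor locus. The effects of the Cre and of that altered receptor allele cannot be told apart from that of the ablation. The labels used here give no age, strain or hormone dose, nor do they say whether each sample was a separate mouse. All p-values therefore reflect only how much these samples vary, part of which may be technical. The source field names another model (SmoM2), against the titles and genotypes used here.

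Each sample was read on 1 array as processed linear intensities, 1 value for each probe set, and 3 arrays per group limit the precision. Median intensities of the arrays ranged from 121.4 to 142.5 (control replicate 2), and correlations between arrays (Pearson, across probe sets, which are not independent replicates) from 0.951 to 0.990. The Hedgehog target Gli1 fell from 419.0 ± 84.7 to 72.0 ± 6.32 (mean ± SD, n = 3 each; limma adjusted p = 0.000492) and Ptch1, the Hedgehog receptor and target, from 1302 ± 269 to 410.8 ± 34.6 (adjusted p = 0.00146), while the single Ihh probe set read 155.5 ± 13.3 and 116.7 ± 21.5 (adjusted p = 0.164). Since the deleted part of Ihh is not stated, that probe set may check nothing. Hhip, listed with these genes for the same check, read 116.4 ± 19.2 and 101.2 ± 5.99 and did not pass (limma adjusted p = 0.447). Uterine markers were present, Hoxa10 at 1345 to 1811 and Hoxa11 at 1990 to 2473. Pancreas transcripts were abundant in Ihh-ablated replicate 2 (summed intensity of 17 markers 116218, against 1911 to 4596 in the other arrays), Cela3b being the brightest there at 12449. The summed intensity of 10 striated muscle markers was 14021 in control replicate 3, 5637 and 5348 in the other controls and 2274 to 2864 in the Ihh-ablated arrays.

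None of the 9 genes passed a test for a difference between genotypes. Of these, 7 were bright enough to be tested, and 0 of these reached an adjusted p under 0.05 (limma, Benjamini-Hochberg over 33778 probe sets), against 2.81% of all 15530 genes tested. At an unadjusted p under 0.05 the number was 1 of 7, Sgk1, where 24.2% of all genes tested reached that level. The groups also did not overlap for 1 of the 7, again Sgk1, where 32.3% of all genes tested had groups that did not overlap. The median log2 difference, Ihh-ablated minus control, was 0.03 over these 7 genes and -0.04 over all genes tested, and the first changed sign after quantile normalization (-0.013). Cftr and Slc26a4 lay in the dimmest 25% of the array, which was left out of the fit, and are described below by their values and an exact permutation test, which with 3 against 3 arrays cannot give a two-sided p below 0.1.

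**Figure D1:**
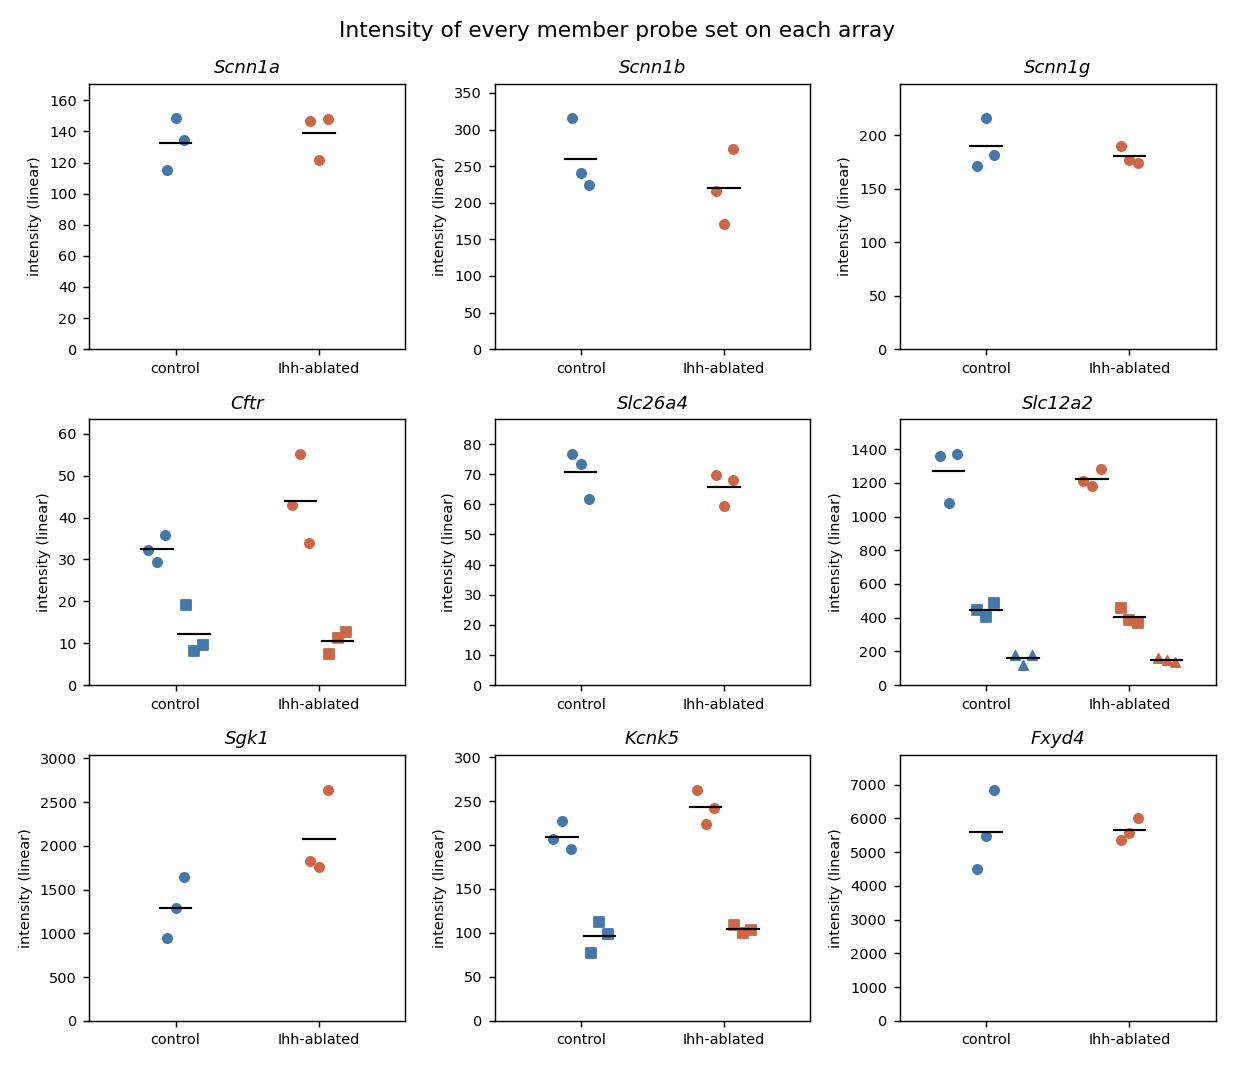
Intensity (linear scale) of each member probe set on each array, control in blue and Ihh-ablated in orange, with black lines at group means; marker shapes separate probe sets of a gene. Groups overlap in every panel except Sgk1, where controls reach 1647 and Ihh-ablated arrays start at 1762.

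The sodium channel subunits differed by less than the spread between arrays. Scnn1a, the alpha subunit that forms the pore with the others, read 115.4, 148.5 and 134.3 in the controls against 147.0, 121.7 and 148.0 in the Ihh-ablated uteri. These groups overlapped almost fully, with a log2 difference of 0.07 (SE 0.14, 95% interval -0.25 to 0.39, limma adjusted p = 0.787). Scnn1b, the beta subunit, read 315.4, 240.2 and 224.6 in the controls against 215.4, 170.6 and 273.7 in the Ihh-ablated uteri. Control replicate 1 was the highest array and Ihh-ablated replicate 2 the lowest, and Ihh-ablated replicate 3 lay above 2 of the controls. The log2 difference of Scnn1b was -0.25 (SE 0.19, 95% interval -0.68 to 0.18, limma adjusted p = 0.430), the widest interval of the 3 subunits. Scnn1g, the gamma subunit, whose gene lies close to Scnn1b on chromosome 7, read 171.0, 215.7 and 181.7 in the controls against 190.2, 177.0 and 173.9 in the Ihh-ablated uteri. Only control replicate 2 stood above the rest, and the log2 difference was -0.07 (SE 0.13, 95% interval -0.35 to 0.22, limma adjusted p = 0.765), or 0.03 with each array centred on its median. The 95% intervals of the 3 subunits leave out a 2-fold change in either direction.

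Sgk1, the serine/threonine kinase that restrains removal of the sodium channel from the membrane, came closest to a call. It read 944.1, 1285 and 1647 in the controls against 1833, 1762 and 2640 in the Ihh-ablated uteri, group means of 1292 ± 352 and 2078 ± 487. Every Ihh-ablated array lay above every control array, but the gap between control replicate 3 and Ihh-ablated replicate 2 was small against the range within each group. The level was 1.62-fold higher (log2 0.70, SE 0.20, 95% interval 0.24 to 1.16), with an unadjusted p of 0.00734 and an adjusted p of 0.110 in limma, so the difference did not pass. The exact permutation p of 0.1 is the smallest that 3 against 3 arrays can give. Single arrays decided the call: without control replicate 3 the difference was 0.89 with an adjusted p of 0.0194, in a fit that called 12.2% of all genes, 4.61% as higher in Ihh-ablated uteri. Without both control replicate 3 and Ihh-ablated replicate 2, the arrays highest in muscle and in pancreas markers, it was 1.00 (adjusted p = 0.00888), where 7.43% of genes were called, 3.09% as higher. Control replicate 3 was also the control highest in Sgk1, and Ihh-ablated replicate 2 the Ihh-ablated array lowest in it. Leaving out either therefore widens the difference whatever other tissue it carried, and the part of that tissue was not tested. Leaving out Ihh-ablated replicate 3 instead gave 0.51 (adjusted p = 0.325) and leaving out control replicate 1 gave 0.49 (adjusted p = 0.210).

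Adipocyte marker levels also varied across the arrays. The summed intensity of 10 adipocyte markers was 2225, 5082 and 8170 in control replicates 1, 2 and 3 and 6489, 10197 and 16495 in Ihh-ablated replicates 1, 2 and 3. The array lowest in Sgk1 was the lowest in these markers, and the array highest in Sgk1 the highest. Control replicate 3, left out of fits above in which Sgk1 passed, had the highest adipocyte sum of the controls. Ihh-ablated replicate 1 had fewer adipocyte transcripts than control replicate 3 and more Sgk1. Of 9 tested adipocyte markers, 7 were higher in Ihh-ablated uteri, with a median log2 difference of 0.70 and 0 calls. At an unadjusted p under 0.05 in limma, which 24.2% of all genes tested reached, 6 markers were higher and 1, Ucp1, was lower. Fabp4, the brightest of them, ranged from 548.7 to 7196, and the part of adipocyte content in the Sgk1 difference was not tested. In bulk tissue a different number of cells of a type and a different RNA level per cell cannot be told apart.

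**Figure D2:**
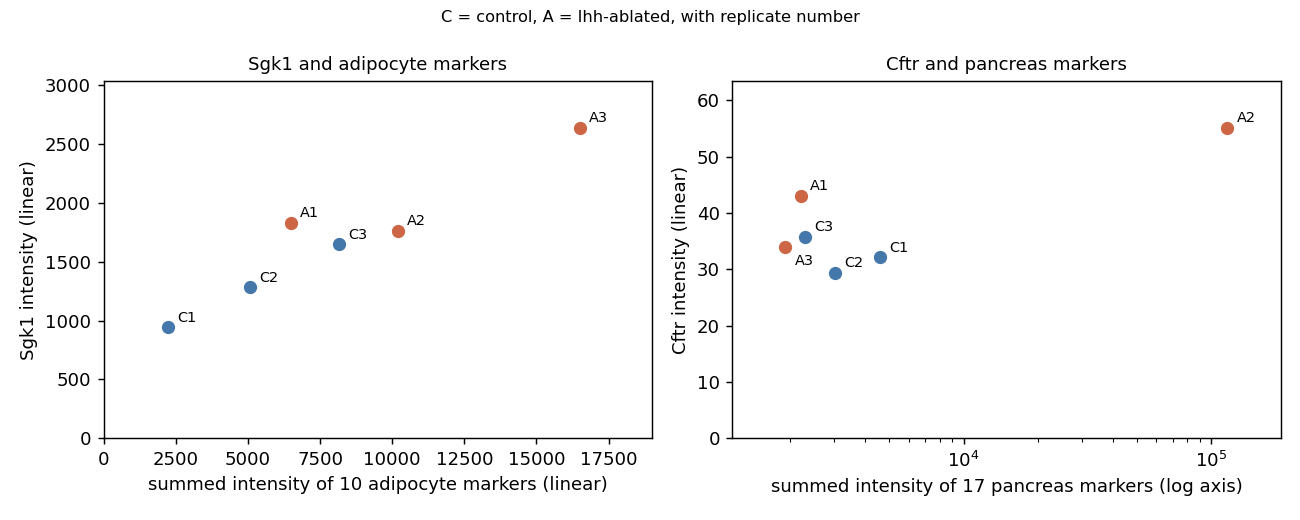
Left, Sgk1 intensity against the summed intensity of 10 adipocyte markers (both linear); right, Cftr intensity (brighter probe set) against the summed intensity of 17 pancreas markers (log axis), 1 point per array. Ihh-ablated replicate 3 has the highest adipocyte sum (16495) and the highest Sgk1 (2640), and Ihh-ablated replicate 2 the highest pancreas sum (116218) and the highest Cftr (55.2).

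The Sgk1 promoter is shown because it is a textbook target of steroid receptors and Sgk1 is the member nearest to a call. RefSeq promoter windows (GRCm38.p6) were matched for 7 of the 9 genes, 12 windows in all, 6 of them for Sgk1, which has several annotated starts. The 250 bases before 1 of these starts, chr10:21993640-21993889 on the + strand, read as follows, with capitals marking a complete palindrome of the element bound by glucocorticoid, mineralocorticoid, progesterone and androgen receptors.
Sgk1: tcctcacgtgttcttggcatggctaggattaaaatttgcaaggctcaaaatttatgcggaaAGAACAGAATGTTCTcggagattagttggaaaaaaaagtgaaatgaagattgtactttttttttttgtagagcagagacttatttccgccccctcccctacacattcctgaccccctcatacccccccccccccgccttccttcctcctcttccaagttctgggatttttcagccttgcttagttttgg
The palindrome, AGAACA and TGTTCT with any 3 bases between them, was searched on both strands and lies 189 to 175 bases before this start (21993701 to 21993715). It occurs in 3 of 32851 promoter windows (0.00913%), 1 each of Sgk1, Acnat2 and Gm35041. The motif was chosen after the Sgk1 values were seen, so this share is a description only. The windows searched are longer than the stretch printed and reach past the start, here to 21993939. The hexamer TGTTCT alone, searched on both strands and part of the palindrome, occurs in 19.0% of all windows and in 4 of the 12 member windows, 3 of Sgk1 and 1 of Slc26a4. The oestrogen receptor palindrome, GGTCA and TGACC with any 3 bases between them (0.07% of all windows), and the Gli site GACCACCCA (0.253%) occur in 0 of the 12 member windows. The letters alone do not show binding, and the absence of a match concerns these windows only.

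Other genes of the corticosteroid response, a list that holds receptors, hormone-converting enzymes and known target genes, were set beside Sgk1. Of 12 genes tested, 1 rose, 0 fell and 11 did not pass, against calls in 1.28% of all genes as higher and 1.53% as lower. The log2 difference was above 0 for all 12, with a median of 0.24, where 43.3% of all genes tested lay above 0. After quantile normalization it was above 0 for 10 of the 12, Fkbp5 and Hsd11b2 lying below. The list was chosen with earlier results of these data known, so these counts are a description only. Its 1 call was Errfi1, a feedback inhibitor of the EGF receptor, which rose from 2637 ± 202 to 3297 ± 84.3 (log2 0.32, SE 0.06, limma adjusted p = 0.0391). Its second probe set also rose (log2 0.50, adjusted p = 0.0445), where 2.14% of all probe sets tested were called. The call of the brighter probe set was lost without control replicate 1 (adjusted p = 0.141) or any single Ihh-ablated array (0.117 to 0.124). Klf9, a transcription factor induced by glucocorticoid and progesterone, read 2331 ± 351 and 2993 ± 132 (log2 0.37, adjusted p = 0.0931), and the Ndrg family member Ndrg2 read 651.4 ± 58.5 and 852.9 ± 99.3 (log2 0.39, adjusted p = 0.101). Zbtb16, another hormone-induced transcription factor, differed by 0.25 (adjusted p = 0.136). The receptors did not pass either, the glucocorticoid receptor Nr3c1 differing by 0.14 (limma adjusted p = 0.444) and the mineralocorticoid receptor Nr3c2 by 0.16 (adjusted p = 0.467). Tsc22d3 and Fkbp5, classical glucocorticoid targets, differed by 0.11 (limma adjusted p = 0.549) and 0.01 (adjusted p = 0.948).

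**Figure D3:**
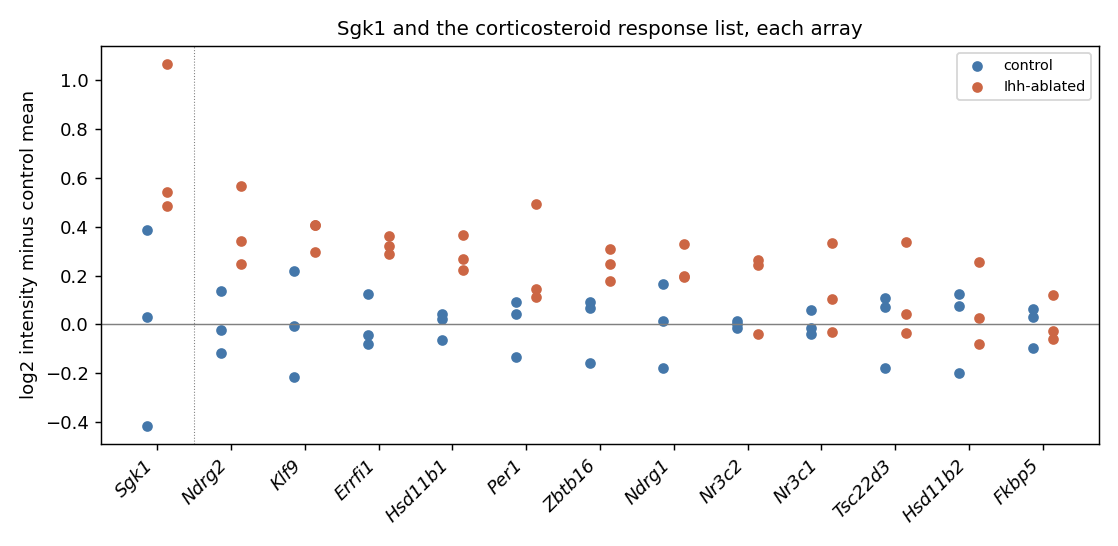
Log2 intensity of Sgk1 and of the 12 genes of the corticosteroid response list on each array, relative to the mean of the 3 control arrays; blue is control and orange Ihh-ablated, genes ordered by log2 difference. Sgk1 spreads from 944.1 to 1647 in control and from 1762 to 2640 in Ihh-ablated arrays on the linear scale, and Fkbp5 lies near 0 in both groups.

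Fxyd4, a regulatory subunit of the sodium pump known from the rat as a corticosteroid-induced factor that raises the pump's sodium affinity, was among the brightest probe sets of the array, at the 99.5 percentile of intensity. It read 4491, 5483 and 6839 in the controls against 5348, 5561 and 6008 in the Ihh-ablated uteri. All Ihh-ablated arrays lay inside the control range, and the spread was wider in control (5604 ± 1179) than in Ihh-ablated uteri (5639 ± 337). The log2 difference was 0.03 (SE 0.13, 95% interval -0.26 to 0.31, limma adjusted p = 0.902), and its sign turned after quantile normalization (-0.04). The summed intensity of 17 epithelial markers was 18755, 21326 and 26749 in the controls against 26264, 26190 and 28369 in the Ihh-ablated uteri. Control replicate 1 was the lowest array for both, while the highest Fxyd4 array was control replicate 3. Of these 17 epithelial markers 16 were higher in Ihh-ablated uteri (median log2 difference 0.31) and 1 passed the test, Spint2. Of all genes tested, 43.3% were higher and 2.81% passed in either direction. The summed intensity of 9 uterine gland markers was 7568, 7417 and 9816 in the controls, and 11869, 13607 and 12255 after ablation, and 5 of the 8 tested rose, against 1.28% of all genes. The part of epithelial and gland content in the differences of transport genes was not tested.

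Other subunits of the pump were tested as a list of 12, of which 9 had a probe set of their own. Fxyd6, a pump regulator better known from brain, rose from 384.7 ± 32.7 to 625.4 ± 70.4, with 353.3, 382.3 and 418.6 in the controls against 628.0, 553.8 and 694.5 in the Ihh-ablated uteri. That is a 1.62-fold rise (log2 0.70, SE 0.11, 95% interval 0.44 to 0.95, limma adjusted p = 0.0178). The difference between the changes of Fxyd6 and Fxyd4 was not tested. The call was lost without control replicate 1 (adjusted p = 0.0824), control replicate 2 (0.0591), Ihh-ablated replicate 1 (0.0862) or Ihh-ablated replicate 3 (0.0775). The other 8 pump genes did not pass, where 1.28% of all genes tested were called as higher and 1.53% as lower. Among these 8 were Fxyd3, an epithelial FXYD subunit (log2 0.28, limma adjusted p = 0.124), Fxyd5 (-0.27, adjusted p = 0.175) and the pump subunit Atp1b2 (0.31, adjusted p = 0.227).

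Slc12a2, the sodium-potassium-chloride cotransporter that loads chloride across the basolateral membrane, was measured by 3 probe sets, 0 of which passed (limma, 0 at an unadjusted p under 0.05). The brightest read 1361, 1083 and 1371 in the controls against 1212, 1183 and 1283 in the Ihh-ablated uteri. Every Ihh-ablated array lay inside the control range, and the log2 difference was -0.05 (SE 0.10, 95% interval -0.27 to 0.18, limma adjusted p = 0.793), or 0.05 with arrays centred on their medians. Its other probe sets differed by -0.15 (limma adjusted p = 0.433) and -0.08 (adjusted p = 0.797). Of the brightest probe sets of the tested members, this one had the narrowest interval. Of 8 other cation-chloride cotransporters and regulatory kinases tested, 0 passed (2 at an unadjusted p under 0.05 in limma, against 24.2% of all genes tested), and their median log2 difference was 0.03. The nearest were the thiazide-sensitive cotransporter Slc12a3 (log2 -0.69, adjusted p = 0.110), the neuronal potassium-chloride cotransporter Slc12a5 (-0.55, adjusted p = 0.178) and the kinase adaptor Cab39 (0.23, adjusted p = 0.247). Slc12a3 and Slc12a5 both read highest in control replicate 2 (235.4 and 183.9), the array with the highest median intensity.

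Kcnk5, a background potassium channel that repolarises secreting epithelia, had a brighter probe set at 206.6, 227.1 and 195.2 in the controls against 262.6, 223.6 and 241.9 in the Ihh-ablated uteri. Ihh-ablated replicates 1 and 3 lay above all controls and Ihh-ablated replicate 2 did not. The log2 difference was 0.21 (SE 0.12, 95% interval -0.05 to 0.47, limma adjusted p = 0.299), and 0.13 in the dimmer probe set (adjusted p = 0.620). Among 20 other potassium channel genes tested, 0 passed, 7 had an unadjusted p under 0.05 (limma; 24.2% of all genes tested) and the median log2 difference was -0.08, or 0.02 after quantile normalization. Kcnma1, the large-conductance calcium-activated channel of smooth muscle, came nearest at 226.9 ± 54.1 and 381.5 ± 39.1 (log2 0.77, adjusted p = 0.0514). Kcnk1, a relative of Kcnk5, read 951.0 ± 156 and 1327 ± 75.0 (log2 0.49, adjusted p = 0.0605). The small-conductance channel Kcnn3 read 198.8 ± 52.6 and 121.8 ± 13.3 (log2 -0.68, adjusted p = 0.0996).

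Cftr, the cyclic AMP-activated chloride channel of secretory epithelia, was read near the bottom of the scale. Its brighter probe set, at the 5.68 percentile of the array, read 32.2, 29.4 and 35.8 in the controls against 43.1, 55.2 and 33.9 in the Ihh-ablated uteri. Ihh-ablated replicates 1 and 2 lay above all controls, whereas replicate 3 lay between them. The log2 difference was 0.42 (two-sided exact permutation p = 0.2, n = 3 each), and a limma fit that kept the dim probe sets gave an adjusted p of 0.249. The highest Cftr value, 55.2, was in Ihh-ablated replicate 2, the array with the pancreas transcripts, whose part in the Cftr difference was not tested. The difference was 0.24 without that array and 0.31 with control replicate 3 removed as well. It was 0.59 when Ihh-ablated replicate 3 alone was left out. With a floor of 64, above all its values, it was 0. The second Cftr probe set read between 7.41 and 19.1, with 5 of 6 values under the floor of 16 set for log2, so it gives no fold. No detection calls were used, so these values were not shown to lie above background. Whether these probe sets could detect a Cftr difference was not tested.

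Slc26a4 (pendrin), which exchanges chloride for bicarbonate or iodide, was also dim, at the 22.8 percentile. It read 76.7, 73.3 and 61.8 in the controls against 69.8, 59.4 and 68.2 in the Ihh-ablated uteri, so the groups overlapped. The log2 difference was -0.10 (two-sided exact permutation p = 0.5, n = 3 each; adjusted p = 0.683 in the limma fit with dim probe sets kept), or 0.0083 after quantile normalization. Among 19 other genes tested of the anion channel and exchanger list, 1 rose, 0 fell and 18 did not pass, with a median of 0.04. Calls over all genes tested were 1.28% as higher and 1.53% as lower. Slc26a7, an anion exchanger and channel of the same family as Slc26a4, rose. It read 298.6, 189.8 and 184.8 in the controls against 443.5, 478.4 and 651.3 in the Ihh-ablated uteri. All Ihh-ablated arrays lay above all controls, a 2.36-fold rise (log2 1.24, SE 0.21, 95% interval 0.78 to 1.70, limma adjusted p = 0.0194). A dimmer Slc26a7 probe set differed by -0.39 (limma adjusted p = 0.359), so that the mean of both was 0.43 (adjusted p = 0.183). The call was also lost without control replicate 2 (adjusted p = 0.0776), Ihh-ablated replicate 1 (0.0508) or Ihh-ablated replicate 3 (0.0712). The chloride channel Clcn2 (log2 0.56, limma adjusted p = 0.0979), Clca1 (1.25, adjusted p = 0.103) and the testis-type exchanger Slc26a8 (-0.35, adjusted p = 0.190) did not pass.

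**Figure D4:**
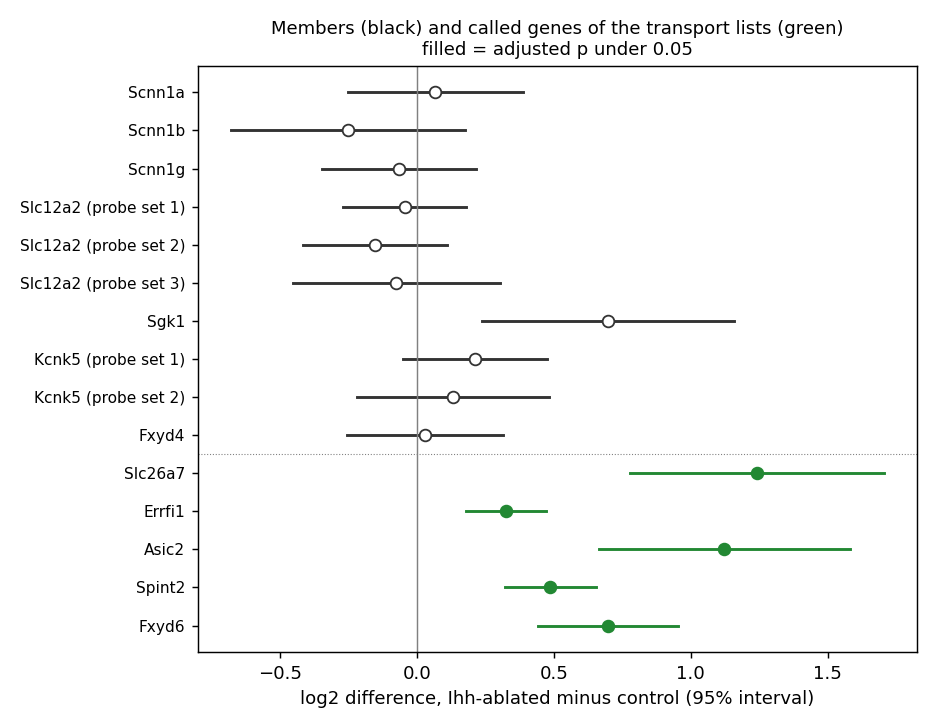
Log2 difference (Ihh-ablated minus control) with its 95% interval for the tested member probe sets (black) and for the called genes of the transport and corticosteroid lists (green); filled points passed an adjusted p of 0.05. All member points are open, Sgk1 lies farthest from 0 at 0.70, and the 5 green genes lie between 0.32 and 1.24.

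Genes that process or regulate the sodium channel, with its acid-sensing relatives, gave 2 rises, 0 falls and 13 that did not pass among 15 tested (median 0.17). Of all genes tested, 1.28% were called as higher and 1.53% as lower. Asic2, a neuronal acid-sensing channel of the sodium channel superfamily, rose from 148.9, 161.5 and 265.2 in the controls to 437.2, 419.1 and 358.9 in the Ihh-ablated uteri. The groups did not overlap, and the rise was 2.18-fold (log2 1.12, SE 0.20, limma adjusted p = 0.0276). That call held without control replicate 3 and was lost without each other single array (adjusted p from 0.0701 to 0.111). Spint2, an inhibitor of the serine proteases that activate the channel, rose from 1916 ± 169 to 2678 ± 82.2 (log2 0.49, SE 0.07, adjusted p = 0.0138), and its second probe set also rose (0.48, adjusted p = 0.0494). Spint2 is also 1 of the epithelial markers above, and its call was lost without either of control replicates 1 and 2 or either of Ihh-ablated replicates 1 and 3, with adjusted p up to 0.0626. Usp2, a ubiquitin hydrolase of the channel (log2 -0.31, limma adjusted p = 0.116), Asic1 (-0.41, adjusted p = 0.158) and the ubiquitin ligase Nedd4 (0.14, adjusted p = 0.163) did not pass. Sodium-proton and bicarbonate transport gave 0 calls among 6 genes tested (0 at an unadjusted p under 0.05, limma; median -0.08, or 0.01 after quantile normalization), with Slc4a11 nearest (log2 0.28, adjusted p = 0.264), then Atp12a (-0.34, adjusted p = 0.479) and Atp4a (-0.16, adjusted p = 0.490).

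Over all 7 lists, 5 of 89 genes tested rose and 0 fell (5.62%, against 2.81% called of all genes tested). Because the lists were chosen with earlier results of these data known, these shares are a description and no test. The number of list genes called depended on the arrays, as did that of all genes, 437 with all 6 arrays. For the lists it was 21 (15 higher and 6 lower) without control replicate 3, where 12.2% of all genes were called. It was 1 without control replicate 1 or 2, where 100 and 206 of all genes were called. With an Ihh-ablated array left out it was 3 for replicate 2 (233 of all genes) and 0 for replicate 1 (109) or 3 (174). Without both control replicate 3 and Ihh-ablated replicate 2, the arrays highest in muscle and in pancreas markers, it was 13, 10 higher and 3 lower. In that fit 7.43% of all genes were called.

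Profiles most like those of the 3 brightest members were sought among all tested genes, by Pearson correlation over the 6 arrays, which share group and tissue make-up. For Sgk1 these were Aqp1, a water channel (r = 0.998), Psap, a lysosomal protein precursor (0.996), and Myl12b, a myosin light chain (0.996). For Fxyd4 they were Lpp (0.991), Fcsk (0.990) and Usp20 (0.987), and for Slc12a2 Tmem41a (0.992), Tpbg (0.988) and Pcm1 (0.984). With 6 arrays and 15530 genes, correlations of this size are a description only. None of these 9 genes was called, the largest difference being that of Aqp1 (log2 0.46, limma adjusted p = 0.102).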

How the data were processed

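Total RNA of mouse uterus was labelled as biotinylated cRNA by the Affymetrix protocol, per the labels. The deposited table holds the authors' processed intensity values, linear, 1 for each probe set. How they were summarised and normalized is not given in the sources used here; a step that shifts dim probe sets would change their folds most. Of 45101 probe sets, 64 controls were left out. Among the rest 34945 had 1 gene symbol in the platform annotation, 932 several and 9160 none, and only those with 1 symbol named genes. Intensities under 16 were set to 16 before log2. Array medians differed by at most 0.231 (log2), under the limit of 0.3 for renormalization. The lowest 25% of probe sets by mean log2 (under 6.16) were not tested, leaving 33778. The test of genotype was that of limma 3.58.1 under R 4.3.3 (lmFit, then eBayes with a trend on intensity; degrees of freedom 4 residual, 5.25 prior), with Benjamini-Hochberg adjustment over all tested probe sets. The brightest probe set stood for a gene. The exact permutation test used the mean log2 difference. In simulated data of 33778 probe sets with independent noise 69 of 100 probe sets with a 2-fold change were recovered, and 98 of 100 with a 4-fold change, beside 10 false calls.

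The members and lists were chosen with earlier results of these data known. Named were all members, every called gene of a list with up to 3 others of lowest p (the receptors Nr3c1 and Nr3c2, Tsc22d3 and Fkbp5 were added after their values were seen, as was the promoter motif), and the 3 closest profiles of the 3 brightest members. Alternatives changed the normalization, floor, filter, variance model, weights, block, arrays, threshold and probe set choice. Promoter sequences are from RefSeq (GRCm38.p6). Python 3.11.15 with matplotlib 3.10.9 drew the figures.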

Additional observations from a re-analysis of the deposited data

How the results depend on the processing

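Among the members, Sgk1 stayed higher in Ihh-ablated uteri in all 19 alternatives (log2 0.49 to 1.00, adjusted p 0.00483 to 0.325) and passed in 3. Scnn1b stayed lower (-0.42 to -0.08) and Kcnk5 higher (0.15 to 0.30), with 0 calls. The number of members called was 0 to 1 with 1 array left out, 1 with control replicate 3 and Ihh-ablated replicate 2 both removed, and 1 with the replicate block. Signs of uncalled members turned for Fxyd4 (-0.039) and Slc26a4 (0.0083) after quantile normalization, for Scnn1g with median-centred arrays (0.026) and array weights (0.015), and for Slc12a2 with median-centred arrays (0.045) and with both of those arrays removed (0.038). With 1 array left out they ranged across 0, from -0.030 to 0.16 for Scnn1a, -0.14 to 0.032 for Scnn1g, -0.16 to 0.013 for Slc12a2 and -0.12 to 0.18 for Fxyd4. The cause was not tested. Cftr went to 0 with a floor of 64. Cftr and Slc26a4 lay under the filter, so alternatives of the variance model gave them no value.

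All genes called numbered 437, with 100 to 1893 when 1 array was left out, 266 with median-centred arrays, 226 without a trend, 782 with array weights, 922 with the replicate block, 1154 without both arrays and 1022 at an adjusted p under 0.1. Leaving out 1 array gave 0 to 3 calls for sodium channel regulation, 0 to 3 for the corticosteroid list, 0 to 4 for anion channels, 0 to 2 for cotransporters, 0 to 4 for potassium channels and 0 to 5 for pump subunits. Without a trend the sodium channel list gave 0. The corticosteroid list gave 0 after quantile normalization, with no filter and without a trend, 3 with the block and 2 without both arrays or at 0.1. Anion channels gave 2 with the block, without both arrays and at 0.1, and 0 with the mean of a gene's probe sets. Cotransporters gave 1 and pump subunits 2 without both arrays. Potassium channels gave 1 with a floor of 64, 2 with robust eBayes, array weights or the block, 4 without both arrays and 3 at 0.1.

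The replicate numbers were not shown to pair the samples: deviations of same-numbered arrays correlated at -0.15, -0.04 and 0.25. As a block, the number moved Sgk1 to an adjusted p of 0.00483 and the calls over all lists from 5 to 10, and 1 of 3 control arrays, replicate 3, correlated best with its own number.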
